A study of Mus musculus with 12 samples.

Results

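Collagen genes encode the triple-helical chains of the extracellular matrix, and 44 entries of the deposited table have a symbol of the form Col, number, a, number. Of these, 42 were not listed at 0 in all 12 libraries, and those whose deposited log2 values averaged 4 or more, 27 in all, were tested. They are 27 of the 11765 genes tested in all. The libraries come from MC3T3-E1, a mouse osteoblastic cell line from newborn skull, in 4 groups of 3 libraries. Cells of the TNFa+BMP4 group were treated with the inflammatory cytokine TNFa at 10 ng/mL and then with the bone morphogenetic protein BMP4 at 10 ng/mL for 3 h. Cells of the TNFa group were given TNFa alone, cells of the BMP4 group BMP4 alone, and untreated cells neither factor. All 4 groups were first kept in medium with 2.5% serum for 30 min. By the protocol TNFa was on the cells for 30 min before the BMP4 step, whereas another label gives 3 h, so the length of exposure is not settled. The titles of the TNFa libraries also carry the word p65, which the labels leave unexplained.

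The labels place replicate 1 of each group in batch 1 and replicates 2 and 3 in batch 2, so that each batch holds all 4 groups. Nothing in the labels says that replicates came from separate cultures, so each p-value speaks to the variation among these libraries only, which may be technical. Tag totals were 13.7 to 15.5 M per library, apart from 20.6 M in TNFa+BMP4 replicate 2. Of 10 osteoblast lineage markers 7 were above the minimum level. Alpl was below it, as were Bglap and Ibsp, genes of mature mineralising osteoblasts. In bulk RNA, fewer cells that make a transcript and less of it per cell cannot be told apart.

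In bone, type I collagen, built from the Col1a1 and Col1a2 chains, forms the banded fibrils that mineralise. Other fibrillar chains (types II, III, V, XI and XXVII) form or regulate fibrils, network chains (types IV and VIII) form sheets, fibril-associated chains such as types XII and XVI sit on fibril surfaces, and type VI assembles beaded filaments around cells. Types XV and XVIII, the multiplexins, lie in and near basement membranes. The tested genes comprised 10 of 11 fibrillar genes, 6 of 9 network genes, 4 of 9 fibril-associated genes, 3 of 6 beaded filament genes, both multiplexins, 1 of 4 transmembrane genes and Col28a1. Col9a1 and Col25a1 were at 0 in every library. The 15 members below the minimum ranged from a mean log2 value of -2.21 for Col6a6 and Col13a1 to 3.69 for Col7a1, the anchoring fibril chain of skin, and Col28a1 at 4.35 was the lowest member tested.

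The 250 bases before the transcription start are shown for 4 genes described at length: Col27a1, which changed most with TNFa, Col8a2, which rose with BMP4, and the neighbouring type VI genes Col6a1 and Col6a2, which rose together. Sequences are from RefSeq, build GRCm38.p6 (mm10), each 5′ to 3′ on the gene's strand. The windows are chr4:63215162-63215411 (plus strand) for Col27a1, chr4:126286544-126286793 (plus strand) for Col8a2, chr10:76726045-76726294 (minus strand) for Col6a1 and chr10:76623405-76623654 (minus strand) for Col6a2. Capitals mark a match to the NF-kB (kB) consensus on either strand, and windows without capitals hold no match to it.
Col27a1: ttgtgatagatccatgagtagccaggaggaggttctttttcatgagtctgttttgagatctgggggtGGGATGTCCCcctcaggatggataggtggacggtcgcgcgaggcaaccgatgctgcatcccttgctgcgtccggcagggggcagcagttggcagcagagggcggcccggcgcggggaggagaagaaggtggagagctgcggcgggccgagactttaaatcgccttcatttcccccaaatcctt
Col8a2: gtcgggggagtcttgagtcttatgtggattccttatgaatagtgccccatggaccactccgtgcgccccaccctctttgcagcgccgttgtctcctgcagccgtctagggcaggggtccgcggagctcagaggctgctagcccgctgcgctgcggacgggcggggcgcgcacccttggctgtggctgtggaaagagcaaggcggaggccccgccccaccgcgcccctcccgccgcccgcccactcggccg
Col6a1: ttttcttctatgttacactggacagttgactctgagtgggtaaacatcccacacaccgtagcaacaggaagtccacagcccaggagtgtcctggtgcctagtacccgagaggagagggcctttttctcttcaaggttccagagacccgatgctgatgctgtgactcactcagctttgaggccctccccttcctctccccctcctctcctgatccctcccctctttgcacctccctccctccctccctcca
Col6a2: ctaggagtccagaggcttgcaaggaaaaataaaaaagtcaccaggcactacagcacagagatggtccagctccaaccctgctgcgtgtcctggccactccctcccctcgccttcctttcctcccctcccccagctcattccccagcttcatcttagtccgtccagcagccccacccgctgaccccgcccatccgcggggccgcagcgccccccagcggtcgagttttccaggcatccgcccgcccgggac
The match in Col27a1, read on the minus strand, lies 183 bases before the start and is the only kB match among the 22 tested collagen genes whose window could be read, while 3.9% of 32817 RefSeq windows of this length hold one. Searched on both strands, GGCGCC was in 3 of the 22 windows and in 9.59% of all windows, CCAAT in 8 of the 22 and in 33.8% of all, and TATAAA in 3 of the 22 and in 12.4% of all. These matches describe letters and not sites in use.

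Type I collagen was the most abundant collagen transcript per length. On the scale of the deposited log2 value minus log2 of transcript length in kb, Col1a2 stood first at 15.12 and Col1a1 second at 14.70 (means of 12 libraries). Col6a1 (12.91), Col2a1, the main chain of cartilage fibrils (12.61), Col6a2 (12.27), Col6a3 (11.80), Col5a2 (11.68) and Col3a1 (11.49) followed, and the order ended at Col11a1, a minor fibril chain (2.03). The gaps between Col6a1 and Col2a1 (0.30), Col2a1 and Col6a2 (0.34), and Col6a3 and Col5a2 (0.11) were smaller than the larger SD of each pair over the 12 libraries. Those between Col6a2 and Col6a3 (0.48) and between Col5a2 and Col3a1 (0.20) were larger. Col12a1 was the highest fibril-associated gene (10.01), Col8a2 the highest network gene (10.34) and Col15a1 the highest multiplexin (9.76). Taking the values out of the log, type I made up 53.4 to 60.3% of the summed per-length collagen level in TNFa+BMP4 libraries, 58.6 to 64.0% in TNFa libraries, 60.2 to 63.6% in BMP4 libraries and 63.6 to 66.5% in untreated libraries. TNFa+BMP4 libraries lay below the untreated range, the highest BMP4 library lay just below the lowest untreated library, and TNFa and untreated libraries overlapped across batches. Within each batch every treated library lay below the untreated libraries. For TNFa the share was 58.6% against 63.6% in batch 1, and 63.7 and 64.0% against 65.6 and 66.5% in batch 2. In each group the lowest share was that of the batch 1 library. Beaded filament genes made up 16.6 to 23.4% in TNFa+BMP4 libraries, 15.2 to 22.2% in TNFa libraries, 13.3 to 17.3% in BMP4 libraries and 12.7 to 17.1% in untreated libraries, with the highest value of each range in the batch 1 library.

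**Figure D1:**
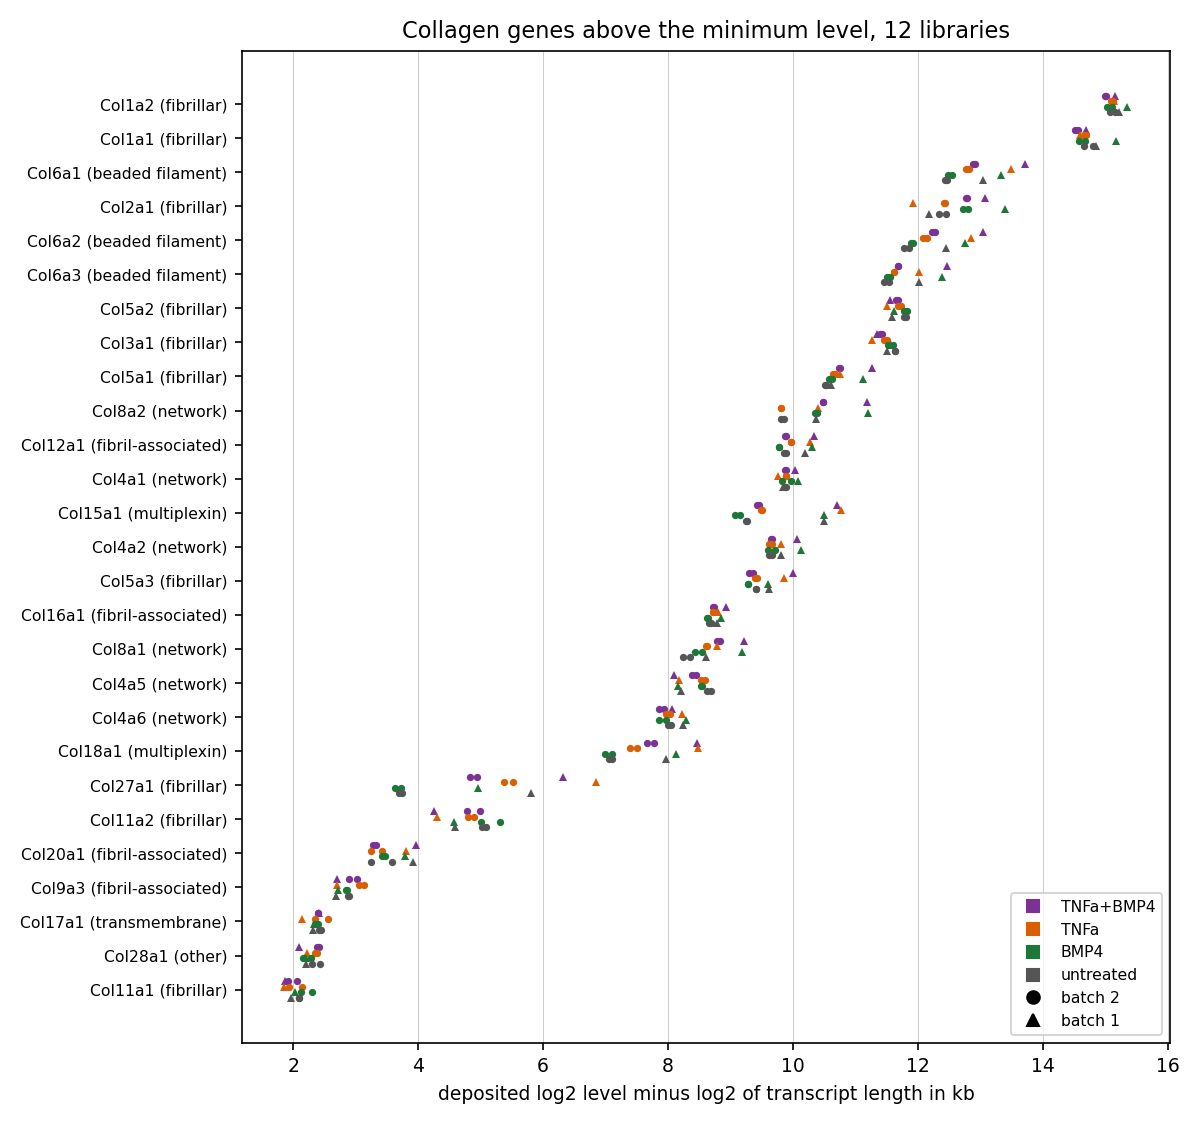
Level per length (deposited log2 value minus log2 of transcript length in kb) of the 27 tested collagen genes in 12 libraries, 1 point per library, coloured by group with circles for batch 2 and triangles for batch 1. Col1a2 and Col1a1 lie at means of 15.12 and 14.70, apart from Col6a1 at 12.91, and Col27a1, Col15a1 and Col18a1 spread widely between batches.

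The cytokine alone was examined by setting TNFa cells against untreated cells. Of the 27 collagen genes 6 rose, against 9.16% of all tested genes that rose, and 1 fell, against 6.32% of all (limma, Benjamini-Hochberg adjusted p under 0.05). The rises were spread over 1 fibrillar gene (Col27a1), 2 of 3 beaded filament genes (Col6a1 and Col6a2), both multiplexins (Col18a1 and Col15a1) and 1 of 6 network genes (Col8a1). The fall was in Col3a1, the chain of type III collagen that joins type I in soft tissue fibrils. The authors' deposited table calls 8 of the 27 here, these 7 and Col5a1, against 13% of all tested genes. Col5a1, a chain of type V collagen, changed by 0.14 ± 0.08 in the limma fit (adjusted p = 0.254) with no overlap between TNFa and untreated libraries, and has an adjusted p of 0.0026 in the authors' deposited table. The median change was 0.00 over the 27 members and -0.01 over all tested genes, on the log2 scale.

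Col27a1, a fibrillar chain known from cartilage and other developing tissues, moved most. In replicates 1, 2 and 3 its log2 value was 9.78, 8.44 and 8.30 in TNFa cells and 8.73, 6.62 and 6.66 in untreated cells. Within each batch both kinds of library were apart, TNFa above untreated, although the untreated batch 1 library lay above the TNFa batch 2 libraries. The rise was 1.50 ± 0.12 (log2 fold change ± SE, n = 3 each, adjusted p = 4.4e-09), or 1.73 in batch 2 and 1.05 in batch 1. The deposited scale compresses low genes, and the authors' deposited table gives Col27a1 a log2 fold change of 2.09 for TNFa.

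Col18a1, whose C-terminal piece is endostatin, had log2 values of 10.97, 9.88 and 9.99 in TNFa cells and 10.46, 9.53 and 9.58 in untreated cells. Its rise was 0.42 ± 0.07 (adjusted p = 6.78e-05). Col15a1, the other multiplexin, had 13.16, 11.89 and 11.91 in TNFa cells and 12.89, 11.65 and 11.67 in untreated cells. It rose by 0.25 ± 0.05 (adjusted p = 0.000534). In both genes every TNFa library was above the untreated libraries of its own batch, and the batches were so far apart that the groups overlapped.

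Among the type VI chains, Col6a1 had log2 values of 15.47, 14.75 and 14.79 in TNFa cells and 15.02, 14.42 and 14.45 in untreated cells. Col6a2 had 14.73, 13.97 and 14.03 in TNFa cells and 14.33, 13.67 and 13.74 in untreated cells. In both, each TNFa library was above the untreated libraries of its batch. Col6a1 rose by 0.37 ± 0.05 (adjusted p = 1.94e-05) and Col6a2 by 0.33 ± 0.05 (adjusted p = 4.89e-05). Col6a3, the longest of these chains, changed by 0.08 ± 0.07 and was not called. The level of Col6a1 relative to Col6a2 per length held at 0.59 to 0.69 log2 units in all 12 libraries. Both lie on chromosome 10 on the same strand, 85387 bases apart.

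Col8a1, a short-chain network collagen of vessel and corneal matrix, had log2 values of 11.13, 10.98 and 10.96 in TNFa cells and 10.96, 10.70 and 10.59 in untreated cells. The lowest TNFa library and the highest untreated library were both at 10.96, so the groups barely separated, with a rise of 0.27 ± 0.07 (adjusted p = 0.0138). Without TNFa replicate 2, TNFa replicate 3 or untreated replicate 1 the adjusted p was 0.099, 0.0822 and 0.0805, in that order. Col3a1 had 13.72, 13.91 and 13.97 in TNFa cells and 13.97, 14.10 and 14.10 in untreated cells, and fell by 0.19 ± 0.05 (adjusted p = 0.0113). Its lowest library was TNFa replicate 1, without which the adjusted p was 0.126. The type I genes, with 17.15, 17.21 and 17.25 in TNFa cells and 17.41, 17.22 and 17.35 in untreated cells for Col1a1, did not pass: Col1a2 changed by -0.03 ± 0.06 (95% interval -0.15 to 0.09) and Col1a1 by -0.12 ± 0.08 (95% interval -0.30 to 0.05).

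BMP4 alone was examined in the same way. Here 4 of the 27 collagen genes rose, against 6.75% of all tested genes, and 0 fell, against 5.47% of all, in the limma fit with Benjamini-Hochberg adjustment. At an unadjusted p under 0.05, 7 were higher and 2 lower, but the share of all tested genes at that threshold was not measured. The authors' deposited table calls 2 of the 27, Col8a1 and Col8a2, both higher, against 7.3% of all tested genes in either direction there. The 4 genes were Col2a1 of the fibrillar class, Col8a2 and Col8a1 of the network class and Col6a2 of the beaded filament class.

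Col2a1 had log2 values of 15.74, 15.07 and 15.15 in BMP4 cells and 14.52, 14.69 and 14.80 in untreated cells. All 3 BMP4 libraries lay above all 3 untreated libraries, and the batch 1 pair was the farthest apart. The rise was 0.65 ± 0.14 (adjusted p = 0.00356), but 0.37 in batch 2 and 1.22 in batch 1, and without BMP4 replicate 1 it was 0.39. The authors' deposited table gives Col2a1 a log2 fold change of 0.68 with an adjusted p of 0.174. Col2a1 is one of 7 chondrocyte markers, of which 4 were above the minimum, and Acan and Col9a1 were at 0 in all libraries. The summed log2 level of this list, most of which is Col2a1 itself, ranged over 15.35 to 15.89 in BMP4 libraries and 14.78 to 15.06 in untreated libraries. Without Col2a1 nearly all of it is Sox9, and it ranged over 12.56 to 12.88 in BMP4 libraries and 12.17 to 12.46 in untreated libraries. Of the other tested markers, Col11a2 changed by 0.06 ± 0.09 (limma, adjusted p = 0.732). Comp averaged 3.99 in BMP4 cells and 4.05 in untreated cells. Sox9, the chondrogenic transcription factor that drives Col2a1 in cartilage, rose by 0.46 ± 0.09 with BMP4 (adjusted p = 0.000885). It was named here after its values were seen, and its part in the Col2a1 result was not tested.

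Both type VIII chains rose. Col8a2 had log2 values of 13.31, 12.46 and 12.49 in BMP4 cells and 12.48, 11.91 and 11.96 in untreated cells. Each BMP4 library was above the untreated libraries of its batch, and the rise was 0.63 ± 0.05 (adjusted p = 4.85e-08). Col8a1 had 11.53, 10.79 and 10.90 in BMP4 cells and 10.96, 10.70 and 10.59 in untreated cells, a rise of 0.32 ± 0.07 (adjusted p = 0.00622). Without BMP4 replicate 1 that rise was 0.19 with an adjusted p of 0.0549. The rise of Col6a2 was 0.16 ± 0.05 (adjusted p = 0.0359), and it was lost on leaving out BMP4 replicate 1 or 3 or untreated replicate 1 or 2, with adjusted p of 0.0684 to 0.259. After quantile normalization it was 0.04 (adjusted p = 0.589). Col1a1 changed by 0.04 ± 0.08 (95% interval -0.14 to 0.21) and Col1a2 by 0.01 ± 0.06 (95% interval -0.11 to 0.14), neither called.

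Krt14, a keratin of basal epithelium, had a mean log2 value of 13.60 and rose by 0.69 ± 0.08 with both factors (adjusted p = 1.5e-06) and by 0.66 ± 0.08 with BMP4 (adjusted p = 1.28e-05). In the list of 4 epithelial markers Epcam was at 0, Krt5 was below the minimum level, and Cdh1, the epithelial cadherin, fell by 0.61 ± 0.09 with both factors (adjusted p = 2.22e-05) and by 0.37 ± 0.09 with BMP4 (adjusted p = 0.00919). The summed log2 level of the list, nearly all of it Krt14, ranged over 13.65 to 14.50 in TNFa+BMP4 libraries, 13.13 to 13.66 in TNFa libraries, 13.49 to 14.69 in BMP4 libraries and 12.98 to 13.72 in untreated libraries. The part of these markers in the rises of Col8a2, Col8a1 and Col2a1 was not tested.

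**Figure D2:**
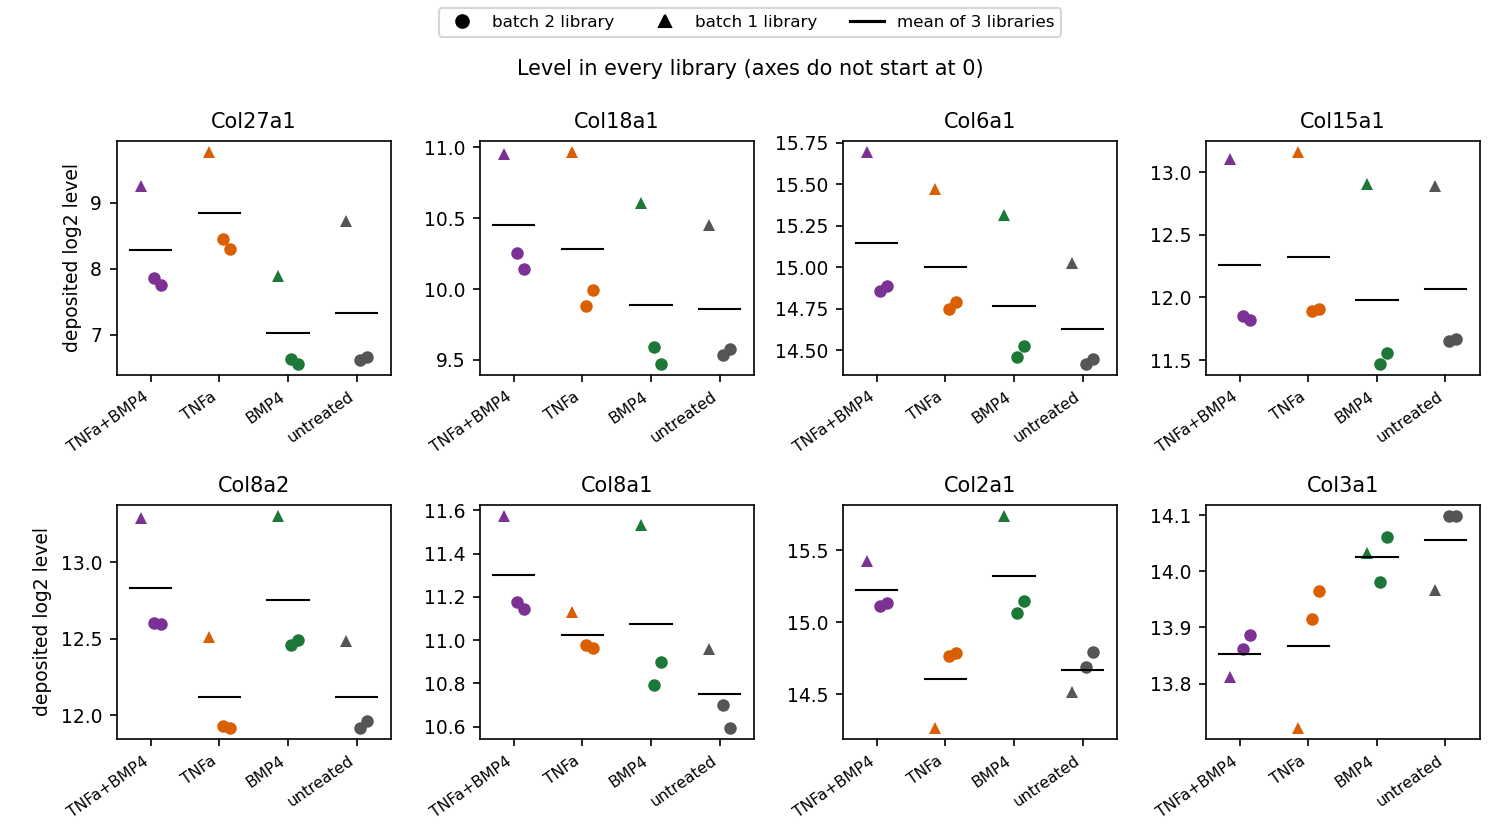
Deposited log2 level of 8 collagen genes in every library, by group from TNFa+BMP4 to untreated, with circles for batch 2, triangles for batch 1 and a line at the mean of 3 libraries. Col27a1, Col18a1, Col6a1 and Col15a1 are higher with TNFa within each batch, Col8a2 and Col2a1 higher with BMP4, and Col3a1 is lower with TNFa.

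With both factors against untreated cells, 10 of the 27 collagen genes rose, against 16.8% of all tested genes, and 3 fell, against 14.4% of all (limma, Benjamini-Hochberg adjusted p under 0.05). All 3 tested beaded filament genes, both multiplexins and both type VIII genes rose, together with the fibrillar genes Col27a1, Col2a1 and Col5a1. Col3a1 and the type IV chains Col4a5 and Col4a6, which pair in basement membranes of smooth muscle and some epithelia, fell. The authors' deposited table also calls 13 of the 27, 12 of them shared with the limma calls, against 21.2% of all tested genes. The median change was 0.06 over the 27 members and 0.00 over all tested genes.

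Col8a2 had log2 values of 13.29, 12.60 and 12.60 in TNFa+BMP4 cells, all above the untreated libraries, and rose by 0.71 ± 0.05 (adjusted p = 1.8e-09). Col27a1 had 9.25, 7.86 and 7.75 in TNFa+BMP4 cells and rose by 0.95 ± 0.12 (adjusted p = 2.32e-06), or 1.16 in batch 2 and 0.52 in batch 1. Col18a1 had 10.95, 10.25 and 10.14 in TNFa+BMP4 cells and rose by 0.59 ± 0.07 (adjusted p = 5.65e-07). All 3 genes were higher than in untreated cells within both batches.

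Col6a1 had log2 values of 15.70, 14.85 and 14.88 in TNFa+BMP4 cells and rose by 0.52 ± 0.05 (adjusted p = 1.64e-07), and Col6a2 rose by 0.48 ± 0.05. Col6a3 rose by 0.27 ± 0.07 (adjusted p = 0.00588), and without TNFa+BMP4 replicate 1 or untreated replicate 1 its adjusted p was 0.0591 and 0.0538. Col8a1 rose by 0.55 ± 0.07, Col2a1 by 0.56 ± 0.14 and Col15a1 by 0.19 ± 0.05. After quantile normalization the rise of Col6a3 was 0.13 (adjusted p = 0.213) and that of Col15a1 0.12 (adjusted p = 0.0558), neither called. Col5a1, which nucleates type I fibrils as part of type V collagen, had log2 values of 14.32, 13.81 and 13.79 in TNFa+BMP4 cells and 13.68, 13.57 and 13.59 in untreated cells. These groups did not overlap, and Col5a1 rose by 0.36 ± 0.08 (adjusted p = 0.00085), 0.22 in batch 2 and 0.65 in batch 1.

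The falls were small. Col4a5 had log2 values of 10.78, 11.07 and 11.14 in TNFa+BMP4 cells and 10.90, 11.38 and 11.32 in untreated cells, and fell by 0.20 ± 0.05 (adjusted p = 0.00233). Col3a1 fell by 0.20 ± 0.05 (adjusted p = 0.00375), with all 3 TNFa+BMP4 libraries below all 3 untreated libraries. Col4a6 fell by 0.15 ± 0.05 (adjusted p = 0.0393), and leaving out TNFa+BMP4 replicate 1 or 2 or any one untreated library gave an adjusted p of 0.0602 to 0.172. Col4a5 and Col4a6 start 1342 bases apart, head to head on chromosome X. Col4a1 and Col4a2, the common basement membrane chains, overlap by 22 bases head to head on chromosome 8, where counting without stated strand could mix reads. They changed by 0.06 ± 0.06 and 0.10 ± 0.06 and were not called. Col1a1 changed by -0.19 ± 0.08 (adjusted p = 0.0993) in this fit and is called lower in the authors' deposited table (adjusted p = 0.003).

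**Figure D3:**
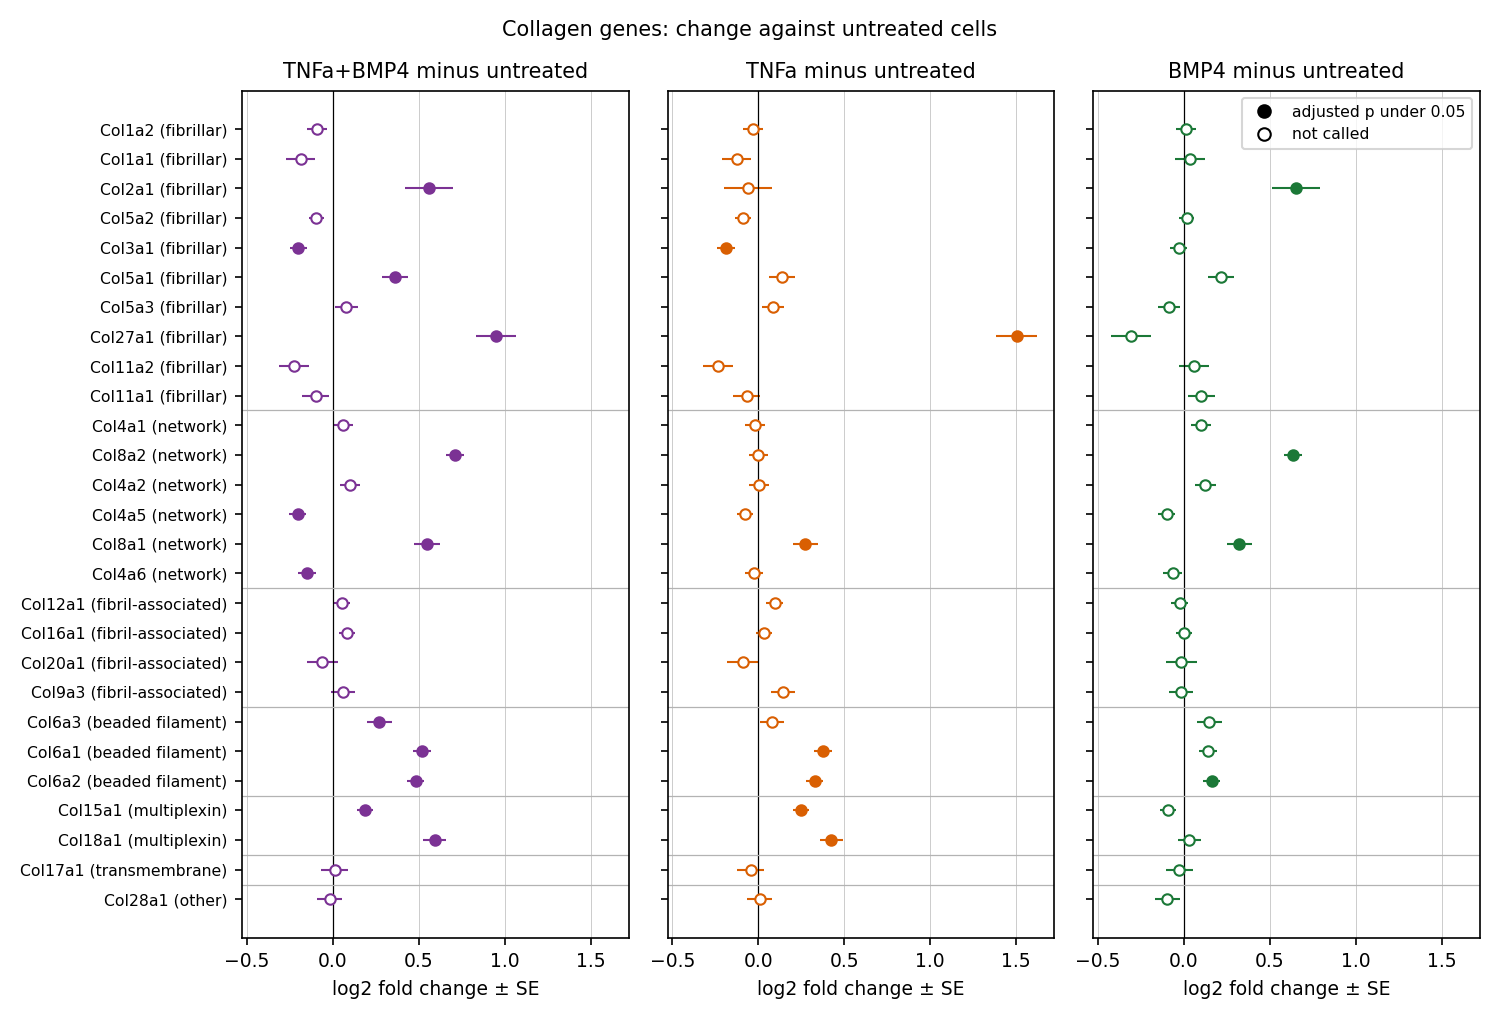
Log2 fold change ± SE against untreated cells for the 27 collagen genes, by class from fibrillar at the top, in TNFa+BMP4, TNFa and BMP4 cells (n = 3 libraries a group); filled points have an adjusted p under 0.05. The widest change is 1.50 for Col27a1 with TNFa, and Col8a2 is filled in the TNFa+BMP4 and BMP4 panels, at 0.71 and 0.63.

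The effect of each factor was also measured in the presence of the other. TNFa+BMP4 against BMP4 cells shares no library with TNFa against untreated cells, although both come from a fit with a common batch term and spread. In TNFa+BMP4 against BMP4 cells 6 collagen genes rose, against 8.78% of all tested genes, and 2 fell, against 7.41% of all (limma). The authors' deposited table calls 9, of which 7 are shared, against 12.2% of all tested genes. The 6 were the same 6 genes that rose with TNFa alone, 100% of either list, but the overlap over all tested genes was not measured. Col27a1 had log2 values of 9.25, 7.86 and 7.75 in TNFa+BMP4 cells and 7.89, 6.64 and 6.56 in BMP4 cells, a rise of 1.26 ± 0.12 (adjusted p = 7.56e-08). Col18a1 rose by 0.56 ± 0.07, Col6a1 by 0.38 ± 0.05, Col6a2 by 0.32 ± 0.05 and Col15a1 by 0.28 ± 0.05. The rise of Col8a1, 0.22 ± 0.07 (adjusted p = 0.0438), was lost without any 1 TNFa+BMP4 library and without BMP4 replicate 2 or 3, with adjusted p of 0.0815 to 0.252. Its value was 0.14 without BMP4 replicate 2 and 0.35 without BMP4 replicate 1.

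Col3a1 fell by 0.17 ± 0.05 in TNFa+BMP4 against BMP4 cells (adjusted p = 0.0199), with adjusted p of 0.0574 to 0.0904 on leaving out TNFa+BMP4 replicate 2 or 3 or BMP4 replicate 1 or 3. Col11a2, a type XI chain of cartilage fibrils, had log2 values of 6.94, 7.69 and 7.48 in TNFa+BMP4 cells and 7.27, 8.00 and 7.70 in BMP4 cells. It fell by 0.29 ± 0.09 (adjusted p = 0.0279), and the call was lost, at 0.0583 to 0.173, without TNFa+BMP4 replicate 1 or 3 or BMP4 replicate 1 or 2. Counts without TNFa+BMP4 replicate 3 came to 5 in place of 8, and over all tested genes to 1594 in place of 1905.

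TNFa+BMP4 against TNFa cells shares no library with BMP4 against untreated cells. In it 4 collagen genes rose, against 5.47% of all tested genes, and 1 fell, against 6.2% of all (limma). The authors' deposited table calls 5, of which 4 are shared, against 10.5% of all tested genes. The 4 were the same 4 genes that rose with BMP4 alone, 100% of either list, again without a measure over all tested genes. In the authors' deposited table Col2a1 is called in neither comparison (adjusted p = 0.0566 here and 0.174 with BMP4 alone). There Col6a2 is called here but not with BMP4 alone (adjusted p = 0.0701). Col8a2 had log2 values of 13.29, 12.60 and 12.60 in TNFa+BMP4 cells and 12.51, 11.93 and 11.92 in TNFa cells, with no overlap, and rose by 0.71 ± 0.05 (adjusted p = 1.1e-08). Col2a1 had 15.43, 15.11 and 15.13 in TNFa+BMP4 cells and 14.26, 14.77 and 14.78 in TNFa cells, and rose by 0.62 ± 0.14 (adjusted p = 0.0053). Without TNFa replicate 1, its lowest library, that rise was 0.37 with an adjusted p of 0.0635. The rise of Col8a1 was 0.27 ± 0.07 (adjusted p = 0.0196), but 0.17 without TNFa replicate 1, and it was lost without that library or TNFa+BMP4 replicate 1 or 2 (adjusted p 0.0607 to 0.192). Col6a2 rose by 0.16 ± 0.05 (adjusted p = 0.0456), and leaving out any 1 of the 6 libraries ended that call (adjusted p 0.0708 to 0.189). After quantile normalization it was 0.06 (adjusted p = 0.443). Without TNFa+BMP4 replicate 2 or TNFa replicate 1 the 5 calls came to 3 and 2. Calls over all tested genes fell there too, from 1373 to 1049 and 752, in that order.

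Col27a1 was the gene that fell in TNFa+BMP4 against TNFa cells, by 0.55 ± 0.12 (adjusted p = 0.00315), with -0.57 in batch 2 and -0.53 in batch 1. In BMP4 against untreated cells Col27a1 was at -0.31 ± 0.12 (adjusted p = 0.0948, not called). These log2 fold changes run from -0.04 in batch 2 to -0.84 in batch 1. Whether TNFa acted differently when BMP4 was present, the interaction term, was called for 0 of the 27 collagen genes, against 0.017% of all tested genes. No member had an unadjusted p under 0.05 in limma's interaction test, where the share of all tested genes at that threshold was not measured. The alternatives run on the interaction also called 0 of the members. Values ranged from -0.25 for Col27a1 (95% interval -0.59 to 0.10) to 0.14 for Col18a1 (95% interval -0.06 to 0.33). Intervals of this width do not show that the factors act independently. Both of these values also join opposite signs in the batches. Col27a1 was at -0.52 in batch 2 and 0.31 in batch 1, and Col18a1 at 0.29 in batch 2 and -0.17 in batch 1.

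Of the 27 members 14 were called in at least 1 of the 5 comparisons and 13 in none, while 39.6% of all tested genes were called in at least 1. The 13 include Col1a1, Col1a2, Col4a1, Col4a2 and all 4 fibril-associated genes. Col12a1, a fibril-associated chain of dense connective tissue, had log2 values of 13.88, 13.42 and 13.43 in TNFa+BMP4 cells, 13.82, 13.51 and 13.51 in TNFa cells, 13.86, 13.31 and 13.32 in BMP4 cells, and 13.73, 13.40 and 13.43 in untreated cells. Its libraries separated by batch, and over both batches the groups overlapped. Within batch 2 the TNFa libraries lay above the untreated libraries and the BMP4 libraries below them. In batch 1 the TNFa and BMP4 libraries both lay above the untreated library. Its changes against untreated cells were 0.05 ± 0.05 with both factors, 0.10 ± 0.05 with TNFa and -0.02 ± 0.05 with BMP4. In the limma fit 0 of the 4 fibril-associated genes were called in any of the 5 comparisons, 0 had an unadjusted p under 0.05, and 0 are called in the authors' deposited table. With 4 genes and 39.6% of all genes called in at least 1 comparison, this count says little about the class. The authors' deposited table calls none of the 15 members below the minimum in any of the 5.

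Between batch 2 and batch 1, adjusted for group, 24 of the 27 collagen genes differed, 7 higher and 17 lower in batch 2 (limma, adjusted p under 0.05). Over all tested genes 64.1% differed, 32% higher and 32.1% lower. The median difference was -0.25 over the collagen genes and 0.00 over all tested genes. For 15 of the 27 the 8 batch 2 libraries and the 4 batch 1 libraries did not overlap, against 29.9% of all tested genes.

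Col27a1 differed by -1.56 ± 0.09 log2 units (SE), batch 2 minus batch 1, with 7.35 ± 0.81 in batch 2 and 8.91 ± 0.80 in batch 1 (mean ± SD, n = 8 and 4). Col15a1 differed by -1.29 ± 0.04, with 11.47 to 11.91 in batch 2 and 12.89 to 13.16 in batch 1. Col18a1 differed by -0.94 ± 0.05, with 9.47 to 10.25 in batch 2 and 10.46 to 10.97 in batch 1. The batch 2 libraries of both multiplexins were all below the batch 1 libraries, and their treatment effects were smaller than this gap.

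The largest differences upward were in Col11a2, Col4a5 and Col9a3, a fibril-associated chain of cartilage. Col11a2 differed by 0.55 ± 0.07, with 7.48 to 8.00 in batch 2 and 6.94 to 7.29 in batch 1. Col4a5 differed by 0.38 ± 0.04, with 11.07 to 11.38 in batch 2 and 10.78 to 10.90 in batch 1. Col9a3 differed by 0.25 ± 0.05, with 4.33 to 4.62 in batch 2 and 4.17 to 4.20 in batch 1. None of these 3 overlapped between batches. By class, all 3 beaded filament genes were lower in batch 2, as were both multiplexins, 3 of 4 fibril-associated genes and 4 of 6 network genes, whereas fibrillar genes divided into 4 higher and 5 lower. Col2a1, Col4a1 and Col17a1 were not called between batches. Batch accounted for 94.7% of the variance of Col15a1 over the 12 libraries and 4.94% went with group, while for Col2a1 batch accounted for 0.377% and group for 69.2%. For Col8a2 the shares were 45.8% for batch and 52.9% for group.

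**Figure D4:**
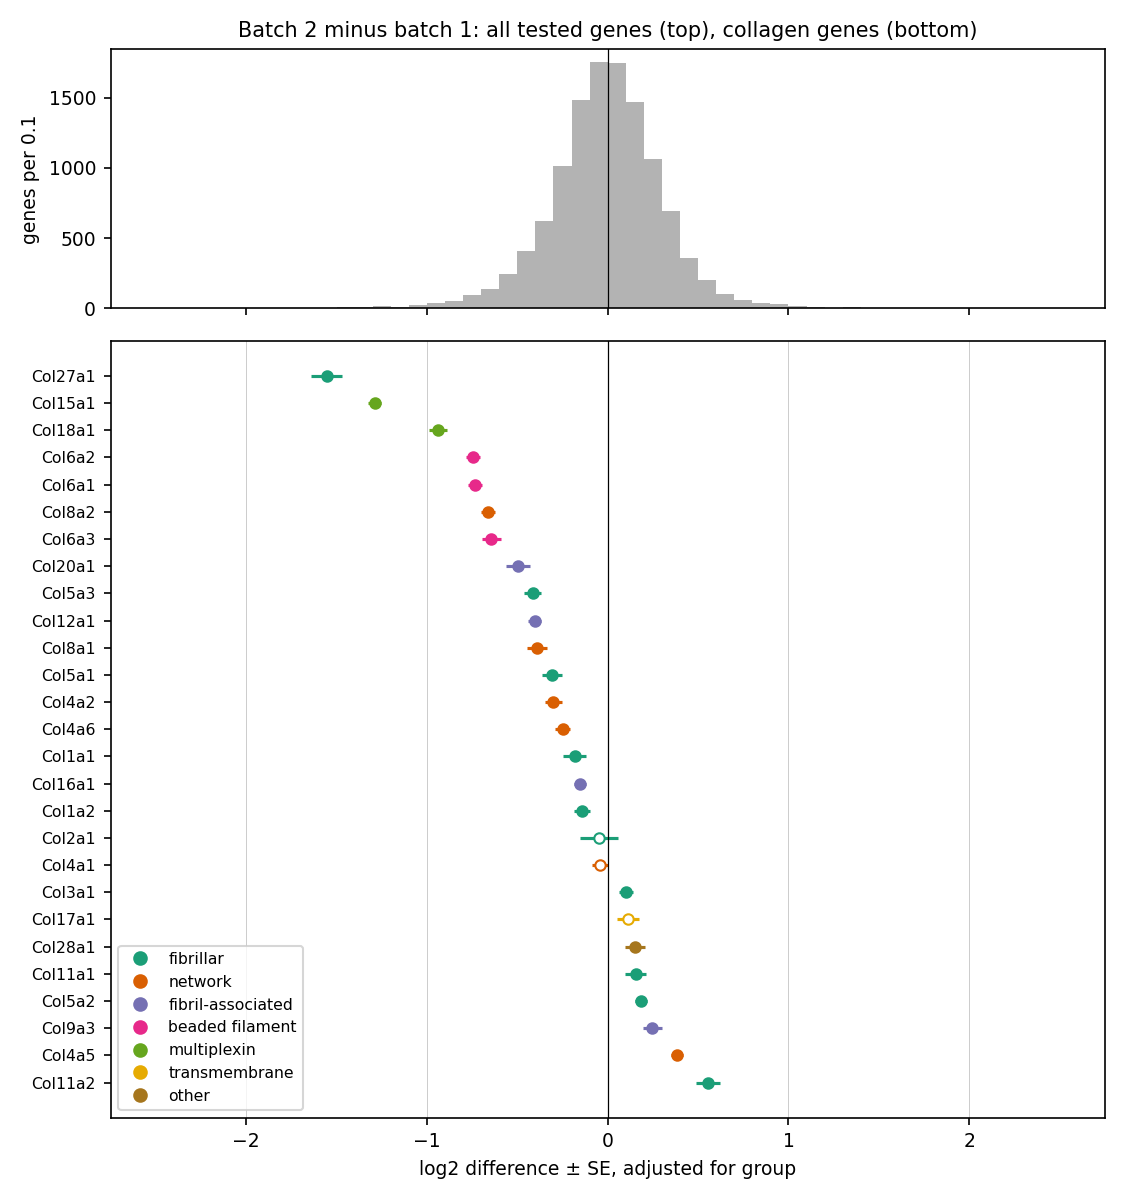
Top, the number of tested genes per 0.1 log2 units of the difference, batch 2 minus batch 1, adjusted for group. Bottom, the same difference ± SE for the 27 collagen genes coloured by class (filled, called; open, not called), of which 17 lie below 0 and 7 above 0 among those called, from -1.56 for Col27a1 to 0.55 for Col11a2.

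The difference of each effect between batches was tested with a batch-by-treatment model. Of the 27 collagen genes 8 differed for BMP4, against 4.68% of all tested genes, 5 for both factors, against 5.78%, and 1 for TNFa, against 1.05% (limma, a model chosen after seeing the data). In BMP4 against untreated cells Col1a1 was at -0.10 in batch 2 and 0.31 in batch 1, Col5a1 at 0.07 in batch 2 and 0.50 in batch 1, and Col6a3 at 0.04 in batch 2 and 0.38 in batch 1. In TNFa against untreated cells Col6a1 was at 0.34 in batch 2 and 0.45 in batch 1. Col8a2 differed from untreated by 0.66 in batch 2 and 0.81 in batch 1 with both factors. Batch 1 holds 1 library a group, so its values carry no spread of their own.

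**Figure D5:**
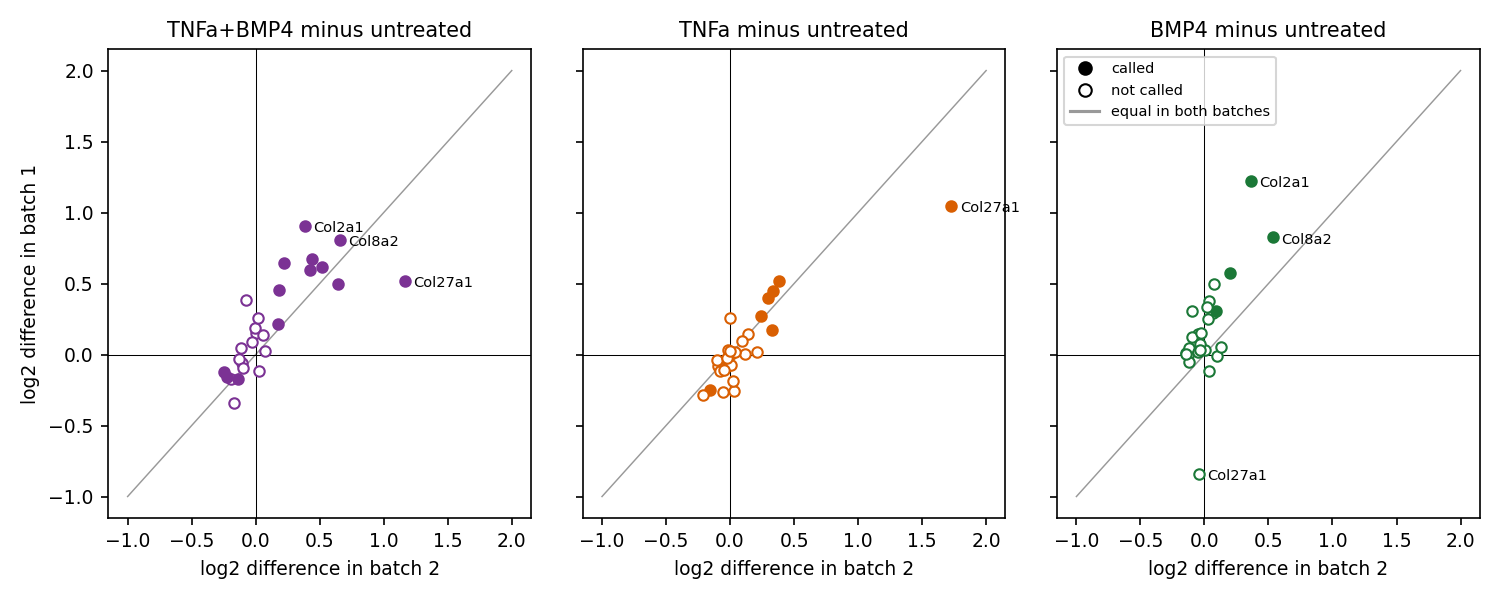
Log2 difference from untreated cells in batch 2 (horizontal, 2 libraries a group) and batch 1 (vertical, 1 library a group) for 27 collagen genes in TNFa+BMP4, TNFa and BMP4 cells; filled points were called, and the diagonal marks equal values. Col2a1 with BMP4 lies above the diagonal (0.37 in batch 2, 1.22 in batch 1) and Col27a1 with TNFa below it (1.73 in batch 2, 1.05 in batch 1).

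Counts for other genes of collagen biosynthesis and turnover are to be read against the shares of all tested genes. These were 16.8% higher and 14.4% lower with both factors, 9.16% higher and 6.32% lower with TNFa, and 6.75% higher and 5.47% lower with BMP4, and with 7 to 20 genes a list many of the counts lie near them. Of 20 tested genes of collagen modification and folding, 5 rose and 1 fell with both factors, 1 rose and 1 fell with TNFa, and 1 rose with BMP4. The prolyl 3-hydroxylase P3h2 fell by 0.62 ± 0.08 with both factors and by 0.57 ± 0.08 with TNFa. The lysyl hydroxylase Plod2 rose by 0.54 ± 0.08 with both factors and by 0.53 ± 0.08 with BMP4, and the prolyl 4-hydroxylase subunit P4ha2 by 0.39 ± 0.07 with TNFa. Of 10 tested genes of propeptide removal and crosslinking, 4 rose and 1 fell with both factors, while 3 rose with TNFa and 3 with BMP4. The transglutaminase Tgm2 rose by 1.25 ± 0.06 with both factors and by 0.99 ± 0.06 with TNFa. Among lysyl oxidase relatives, Loxl1 rose by 0.63 ± 0.08 with both factors and 0.52 ± 0.08 with BMP4, and Loxl4 by 0.53 ± 0.05 with TNFa. Lox rose by 0.24 ± 0.05 with BMP4.

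Of 15 tested fibril-binding proteoglycans and glycoproteins, 3 rose and 3 fell with both factors, 1 rose and 4 fell with TNFa, and 4 rose and 1 fell with BMP4. Osteoglycin, Ogn, fell by 0.78 ± 0.07 with both factors and by 0.54 ± 0.07 with TNFa. The matrix glycoprotein Tnc rose by 0.54 ± 0.12 with both factors and by 0.37 ± 0.12 with TNFa. With BMP4 fibromodulin, Fmod, rose by 0.58 ± 0.07 and Prelp by 0.46 ± 0.10. Among 7 tested collagen receptors 2 rose and 1 fell with both factors, 2 rose with TNFa and 3 with BMP4, and the receptor kinase Ddr1 rose by 1.01 ± 0.05 with both factors, by 0.75 ± 0.05 with BMP4, and by 0.25 ± 0.05 with TNFa. Ddr2, its relative, rose by 0.24 ± 0.05 with TNFa, the endocytic receptor Mrc2 by 0.34 ± 0.07 with BMP4, and the integrin chain Itga10 fell by 0.48 ± 0.07 with both factors. Of 7 tested degrading enzymes and inhibitors, 3 rose with both factors, 3 rose and 1 fell with TNFa, and 2 rose with BMP4. The metalloproteinase inhibitor Timp1 rose by 1.53 ± 0.10 with both factors, by 0.76 ± 0.10 with TNFa, and by 0.39 ± 0.10 with BMP4. Its relative Timp3 rose by 1.04 ± 0.10 with both factors and by 0.58 ± 0.10 with BMP4, and the gelatinase Mmp9 by 1.02 ± 0.14 with TNFa.

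Of 14 regulators of collagen transcription and mRNA, 2 rose and 2 fell with both factors, 2 rose and 2 fell with TNFa, and 3 rose with BMP4. Creb3l1, a factor that activates type I collagen genes in bone, rose by 1.02 ± 0.08 with both factors and by 0.81 ± 0.08 with BMP4. The osteoblast factor Sp7 rose by 0.80 ± 0.12 with BMP4. Sox9 fell by 0.41 ± 0.09 with both factors and by 0.74 ± 0.09 with TNFa. Runx2, the master regulator of osteoblasts, fell by 0.39 ± 0.07 with both factors and by 0.60 ± 0.07 with TNFa. With both factors Col2a1 was higher than in untreated cells and Sox9 lower. Without Col2a1 the chondrocyte marker sum, nearly all of it Sox9, was at log2 levels of 11.38 to 12.23 in TNFa+BMP4 libraries and 12.17 to 12.46 in untreated libraries.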

How the data were processed

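RNA from 12 libraries was sequenced as 150 bp paired-end reads after polyA selection. Per the submitters' processing notes, the mm10 build was used with HISAT2, HOMER and Trim Galore, whose versions are not given in the sources used here. HOMER counted exon reads, per the file headers, for 1 transcript per gene and tested pairs of groups with batch as a factor. Library columns are deposited as log2 values whose transformation is not named and which compress low levels (slope on the authors' fold changes for TNFa 0.26 at mean log2 4 to 6, 0.92 above 10). The authors' log2 fold changes and adjusted p-values are deposited in the same table. Batch numbers follow the labels; those in the header are swapped.

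Genes averaging 4 or more in log2 were fitted with limma 3.58.1 (R 4.3.3) on 4 groups and an additive batch term, using a trended prior variance (7 residual degrees of freedom, 20.3 after moderation). A call required an adjusted p under 0.05, by Benjamini-Hochberg over all 11765 tested genes. Tests are two-sided. The fit, on simulated data for TNFa against untreated cells over 11765 genes, recovered 93% of planted log2 changes of 0.5 and 100% of 1. Of 198 calls there 5 were false. The simulation had an additive batch term and the same effect in both batches. It does not measure recovery of smaller changes or of effects that differ between batches. Alternatives were quantile normalization, other minimum levels, no trend, replicate block, no batch term, batch 2 alone and leaving out each library. Members and lists were chosen with earlier results of these data known. Named genes are those called in any treatment comparison, 10 fixed genes, the highest of each class, the genes beside the minimum level, the 3 largest rises and falls between batches, and up to 2 called genes per list and comparison. Same-numbered replicates 2 and 3 were checked for pairing: differences between them correlated between groups at 0.02 to 0.164, over 0.1 in 2 of 6 pairs, and were not blocked.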

Additional observations from a re-analysis of the deposited data

Results flagged for a closer look

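For 14 combinations of gene and treatment the effect differed between the batches, by the limma interaction of batch with treatment (Benjamini-Hochberg adjusted p under 0.05, 4 residual degrees of freedom). This test was added after the data were seen, and batch 1 has 1 library a group. The spread therefore comes from batch 2 libraries alone, and all batch 1 effects share untreated replicate 1. A difference between batches cannot be told apart here from a deviation of 1 batch 1 library. With BMP4 against untreated cells 8 of 27 collagen genes passed, against 4.68% of all tested genes. With both factors 5 passed, against 5.78% of all, and with TNFa 1 passed, against 1.05% of all.

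All values are the log2 effect in batch 2 minus that in batch 1. For BMP4 the differences were -0.86 for Col2a1, -0.43 for Col5a1, -0.41 for Col1a1, -0.37 for Col8a1, -0.34 for Col6a3, -0.31 for Col4a2 and -0.29 for Col8a2, each with the smaller effect in batch 2 except that Col1a1 changed sign (-0.10 in batch 2, 0.31 in batch 1). Col27a1 differed by 0.80, being at -0.04 in batch 2 and -0.84 in batch 1. Its mean log2 value was 7.35 in batch 2 and 8.91 in batch 1, and the deposited scale compresses low levels. The effects on Col27a1 in the batches are therefore not measured on like parts of that scale. With TNFa the effect on Col27a1 differed by 0.68. With both factors it differed by 0.64 for Col27a1, -0.52 for Col2a1, -0.46 for Col5a3, -0.42 for Col5a1 and -0.27 for Col6a3. Col5a3 was at -0.07 in batch 2 and 0.39 in batch 1. What lies behind these differences was not tested.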

How the results depend on the processing

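The 5 comparisons of treatments rest on the batch term: without it the count of collagen genes called was 0 in each. Over all 11765 tested genes the calls against untreated cells were then 383 in place of 1822 for TNFa and 114 in place of 1438 for BMP4. For both factors they were 869 in place of 3673. They were 105 in place of 1373 for TNFa+BMP4 against TNFa cells and 345 in place of 1905 for TNFa+BMP4 against BMP4 cells. What lies behind these losses was not tested. For TNFa+BMP4 against TNFa cells the count of 5 was 2 with no minimum level and 3 with no mean-variance trend, and the cause was not tested. Calls over all genes in this comparison also fell, from 1373 of 11765 to 906 of 17701 and 1147 of 11765, in that order. Leaving out 1 library at a time gave 6 to 7 calls for TNFa against untreated cells, 2 to 5 for BMP4 against untreated cells, 11 to 13 for TNFa+BMP4 against untreated cells, 2 to 4 for TNFa+BMP4 against TNFa cells and 5 to 9 for TNFa+BMP4 against BMP4 cells. It gave 22 to 24 calls between batches. Calls over all tested genes also moved on leaving out 1 library of either group compared. They ranged over 1297 to 1662 for TNFa and 756 to 1332 for BMP4 against untreated cells. For TNFa+BMP4 they ranged over 752 to 1066 against TNFa cells and 1320 to 1594 against BMP4 cells. BMP4 against untreated cells fell to 2 calls without BMP4 replicate 1, while calls over all tested genes fell from 1438 to 951. With replicate number as a block in place of batch the counts were 8 for TNFa, 4 for BMP4 and 14 for both factors against untreated cells, 5 for TNFa+BMP4 against TNFa cells and 7 for TNFa+BMP4 against BMP4 cells, where Col8a1 was lost (adjusted p = 0.061). Over all tested genes the calls with that block were 1738, 1329, 3635, 1279 and 1812, in the same order. All 12 libraries correlated best with their own number. For the 4 replicate 1 libraries number and batch are the same. For the 8 of batch 2 the labels state no pairing, and what lies behind their correlations was not tested. Of 481 checks on single called genes, 98 lost the call and 0 turned the direction. Quantile normalization ended the calls of Col6a2 with BMP4 and in TNFa+BMP4 against TNFa cells, and of Col6a3 and Col15a1 with both factors. Fitting without a minimum level or without the trend, or batch 2 alone, ended some calls near the threshold in Col8a1, Col6a2, Col4a6, Col2a1, Col11a2 and Col3a1 (adjusted p 0.0542 to 0.192). Changes of low genes are understated by the deposited scale, and members below the minimum were not tested.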
